A study of Mus musculus with 20 samples.

Results

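The genes examined were 9 Wnt ligand genes with known roles in the face: Wnt3, Wnt4, Wnt5a, Wnt5b, Wnt6, Wnt7b, Wnt9b, Wnt10a and Wnt11. A peak of acetylated histone H3 lysine 27 (H3K27ac) belonged to a gene if it overlapped the gene body, or if no other protein-coding gene of GENCODE vM21 had a start closer to it, up to a limit of 100 kb. The 9 genes were chosen by name, with earlier results of these data known, and are 9 of the 21938 protein-coding genes of that annotation. They held 110 of 144852 peaks.

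H3K27ac marks active promoters and enhancers, and was mapped by ChIP-seq in face tissue of wild-type (WT) mouse embryos, with all cell types of each tissue mixed. There was 1 library for each tissue and stage. The 4 libraries of e11.5 (days of embryonic development) came from the mandibular and maxillary processes and from the medial and lateral nasal plates. The 3 libraries of e13.5 and the 3 of e15.5 came from both jaw processes (mandibular, maxillary) and the nose. All animals were WT and untreated as far as the labels say, and the number of embryos behind a library was not given in the sources used here.

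Wnt proteins are secreted, lipid-modified ligands that bind Frizzled receptors. With the co-receptors Lrp5 and Lrp6 they stabilise beta-catenin, which acts with TCF/LEF factors in the nucleus. Wnt5a and Wnt11 are best known for beta-catenin-independent signalling, for which Ror1, Ror2 and Ryk serve as receptors. In the mouse face, Wnt3 and Wnt9b are known from the surface ectoderm, where Wnt9b is needed for fusion of the upper lip and primary palate, and Wnt5a is known from the outgrowing mesenchyme.

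The peak lists differed widely in yield, from 6571 to 25941 peaks and from 10.5 to 49.4 Mb of covered sequence. The 3 nasal libraries of e11.5 and e13.5 had 20492 to 25941 peaks, and the 4 jaw libraries of these stages 6571 to 10753. Sequencing depth was unknown, so a gene without a peak may still hold signal. A gene's level is therefore given as its covered share, the bp of its peaks per Mb of sequence covered by all peaks of that library. For equal bases of a gene, this share is higher where the list covers less sequence. All 6 facial mesenchyme markers, among them Prrx1, Twist1 and Msx1, had peaks in all 10 libraries.

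For all 3 libraries of e15.5 the tissue in the label differs from the tissue in the deposited peak names. In the peak names, the library labelled mandibular process is nose, and the library labelled maxillary process is mandibular process. The library labelled nose is maxillary process there. Hand2, a regulator of the distal jaw, had a share of 1914 bp per Mb in the e11.5 mandibular library and 1915 in that of e13.5. At e15.5 it had 1157 in the library labelled maxillary process, 18.6 in the library labelled nose and 0 in the library labelled mandibular process, which goes against the labels. The e15.5 libraries are therefore named by label, used as a set for stage, and left out of the comparison of nasal and jaw tissue.

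Distal regions of Wnt7b, Wnt10a and Wnt11 are shown first, because these 3 genes were marked there and hardly at their promoters. For 5 of the 6 windows the region was found in 7 to 9 libraries. The Wnt11 window at -37.1 kb, from a region in 4 libraries, was chosen after the motif search because it alone held the TCF/LEF motif, and the Wnt11 regions at -50.8 and 40.9 kb, in 5 libraries each, are not shown. Each sequence is the central 200 bases of the stretch shared by the libraries of a region, on the plus strand of GRCm38 (RefSeq, GRCm38.p6, the same sequence as mm10). Capitals mark matches to the motifs named after the sequences. The first window belongs to the region centred at -52.3 kb from the start of Wnt7b (negative is upstream), at chr15:85634806-85635005, and its region was found in 8 libraries. The second belongs to the region at -63.9 kb, at chr15:85646148-85646347, was found in 8 libraries, and overlaps an exon of the noncoding gene Gm49539. The third belongs to the region at -72.4 kb, at chr15:85654013-85654212, in a region that was found in 7 libraries and overlaps an exon of the noncoding gene Lncppara. The fourth belongs to the region 25.7 kb downstream of the start of Wnt10a, at chr1:74816997-74817196, between genes, in 8 libraries. The fifth and the sixth lie upstream of Wnt11 between genes, at chr7:98797782-98797981 (region at -37.1 kb, 4 libraries) and at chr7:98816109-98816308 (region at -19.2 kb, 9 libraries).
Wnt7b window at -52.3 kb: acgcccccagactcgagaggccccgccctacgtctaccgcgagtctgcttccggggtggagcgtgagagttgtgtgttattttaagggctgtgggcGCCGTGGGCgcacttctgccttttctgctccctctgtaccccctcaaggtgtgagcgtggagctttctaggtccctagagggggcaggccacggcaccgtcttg
Wnt7b window at -63.9 kb: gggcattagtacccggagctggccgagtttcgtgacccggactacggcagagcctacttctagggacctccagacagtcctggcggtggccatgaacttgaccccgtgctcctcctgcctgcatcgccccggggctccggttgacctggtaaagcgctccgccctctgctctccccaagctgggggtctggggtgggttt
Wnt7b window at -72.4 kb: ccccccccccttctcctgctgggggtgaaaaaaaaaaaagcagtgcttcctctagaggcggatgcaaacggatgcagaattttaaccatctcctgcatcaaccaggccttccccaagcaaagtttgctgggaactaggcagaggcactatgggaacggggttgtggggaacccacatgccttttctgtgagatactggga
Wnt10a window: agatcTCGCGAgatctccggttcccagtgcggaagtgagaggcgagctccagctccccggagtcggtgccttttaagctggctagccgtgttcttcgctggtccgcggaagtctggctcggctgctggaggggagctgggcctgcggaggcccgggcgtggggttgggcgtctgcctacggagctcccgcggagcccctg
Wnt11 window at -37.1 kb: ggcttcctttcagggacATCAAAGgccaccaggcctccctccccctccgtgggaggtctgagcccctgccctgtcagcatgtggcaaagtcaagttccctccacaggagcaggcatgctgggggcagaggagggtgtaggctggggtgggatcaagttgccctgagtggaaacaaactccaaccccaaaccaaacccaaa
Wnt11 window at -19.2 kb: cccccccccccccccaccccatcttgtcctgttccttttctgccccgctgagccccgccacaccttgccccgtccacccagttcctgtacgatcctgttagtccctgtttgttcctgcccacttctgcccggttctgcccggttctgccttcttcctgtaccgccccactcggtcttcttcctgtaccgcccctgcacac

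Motifs were searched on both strands in the windows of all 12 ligand gene regions found in at least 3 libraries, and in the same window of all 17742 such regions. The TCF/LEF motif CTTTGAT was in 1 of the 12 windows, that of Wnt11 at -37.1 kb, and in 1.84% of all windows. The AP-2 motif GCCNNNGGC was in 3 of 12, that of Wnt7b at -52.3 kb among them, and in 14.2% of all. The homeodomain motif TAATTA, the bHLH motif CAGATG and the forkhead motif TGTTTAC were in 0 of 12 and in 2.43%, 13.0% and 2.54% of all windows. The palindrome TCGCGA, which was added after the windows had been read, was in 1 of 12, the Wnt10a window, and in 1.74% of all windows. That window had 68.5% GC and a ratio of observed to expected CpG of 0.826, against medians of 55.5% and 0.490 over all windows.

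The ligand genes fell into 4 kinds by where and how often they were marked, as the map of shares by gene and library shows. Wnt5a was marked at its promoter in all 10 libraries. Wnt7b, Wnt10a and Wnt11 were marked in 9, 8 and 9 libraries, almost only away from their starts. Wnt5b was marked in all 10 libraries, but mainly over the start of another gene inside its body. Wnt4 and Wnt6 were marked in 5 libraries and 1 library, and Wnt3 and Wnt9b in none.

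**Figure D1:**
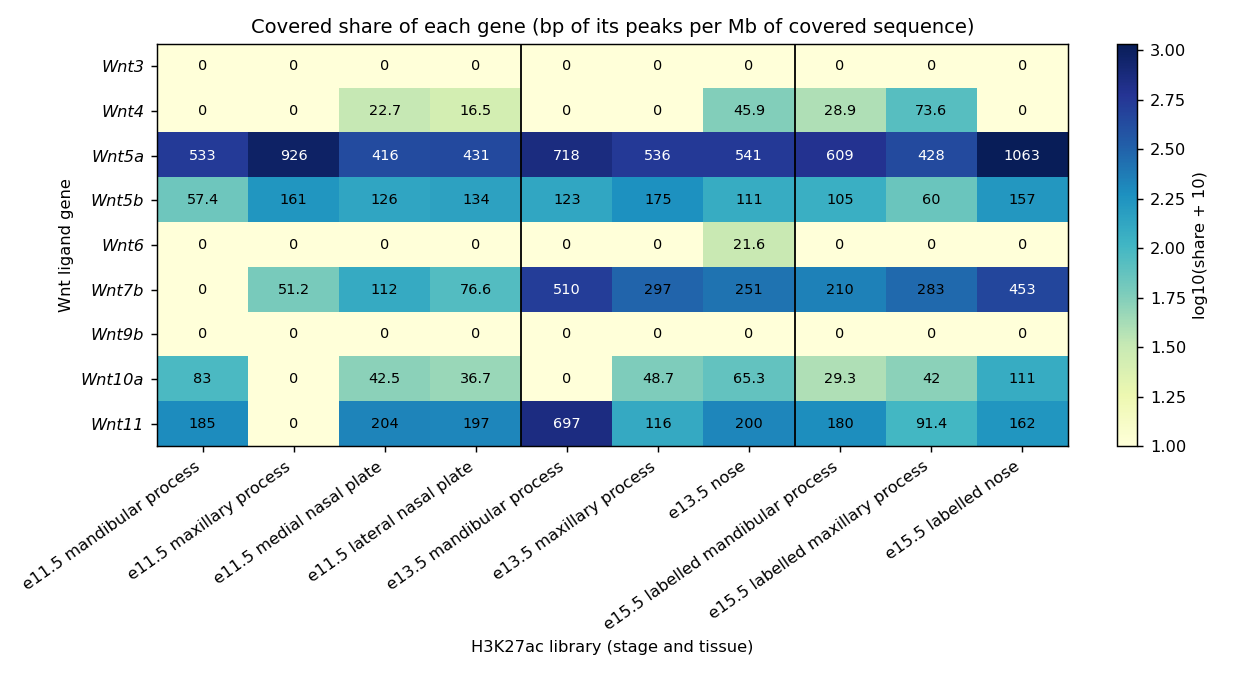
Covered share of the 9 ligand genes (rows) in the 10 H3K27ac libraries (columns), in bp of the gene's peaks per Mb of covered sequence, printed in each cell and coloured on a log10 scale after adding 10. Wnt5a is high in every column, with 416 to 1063 bp per Mb, and the rows of Wnt3 and Wnt9b hold only 0.

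A promoter peak here overlaps the 1 kb on either side of a start site of the gene. Of the 90 pairs of gene and library, 15 had one, and 10 of these were Wnt5a. The others were Wnt4 in 2 libraries (the e13.5 nose and the e15.5 library labelled maxillary process) and Wnt5b, Wnt6 and Wnt7b in the e13.5 nose, the list with the most peaks. Of the 6275 protein-coding genes with a peak in at least 8 libraries, 3.81% had no promoter peak in any library, and 4.78% had one in at most 1 library. Of the 5 ligand genes with a peak in at least 8 libraries, 2 had none (Wnt10a and Wnt11) and 4 had one in at most 1 library, which also counts Wnt5b and Wnt7b. Wnt5b reached 8 libraries only through peaks over the start of Fbxl14, a gene inside its body. The limit of 1 library was chosen after these counts were seen.

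In RefSeq's promoter sequences (GRCm38.p6), 6 of the 9 genes had an entry. The ratio of observed to expected CpG was 0.744 for Wnt3, 0.753 for Wnt9b, 0.744 for Wnt6 and 0.977 for Wnt4, and 0.877 and 1.18 for the entries of Wnt11, against a median of 0.384 over 32851 promoters. For Wnt5b it was 1.06 at the first start and 0.314 and 0.194 at the inner starts. Apart from those inner starts, all entries of the 6 genes lay above the median.

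Wnt5a (ENSMUSG00000021994.15, plus strand of chromosome 14) had the largest share of the 9 genes in every library. Its shares at e11.5 were 533 bp per Mb in the mandibular process, 926 in the maxillary process, 416 in the medial nasal plate and 431 in the lateral nasal plate. At e13.5 they were 718 in the mandibular process, 536 in the maxillary process and 541 in the nose. At e15.5 they were 609, 428 and 1063 in the libraries labelled mandibular process, maxillary process and nose. The 3 stages overlapped, with the 2 highest values in the e15.5 library labelled nose and the e11.5 maxillary process. These 2 lists covered the least sequence, 12.8 and 10.5 Mb. The peaks of Wnt5a in them covered 13630 and 9722 bp, against 26732 bp in the e13.5 nose.

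The peaks of Wnt5a merged into 3 regions, and only the first, of 14980 bp at chr14:28503889-28518868, was found in all 10 libraries. It began at -0.861 kb from the annotated start, ran 14.1 kb into the gene and covered exons and introns. The start of the noncoding gene Gm2670 also lies within 1 kb of it, and unstranded peaks cannot be assigned to either. In the e11.5 mandibular process the domain was broken into peaks of 4413 and 3862 bp. In each other library a single peak of 9722 to 14933 bp lay in it, from within 1 kb upstream of the start. These peaks reached 12.7 to 14.1 kb into the gene, but 9.01 kb in the e11.5 maxillary process, 9.51 kb in the e13.5 mandibular process and 10.66 kb in the e13.5 maxillary process. Each such peak ranked between the third and the 23rd widest of its whole list, and in the e11.5 mandibular process the wider peak ranked 283rd. The second region, at chr14:28519102-28529239, covered the rest of the gene with a peak of 9590 bp in the e13.5 nose and of 10122 bp in the e15.5 library labelled mandibular process. In the e15.5 library labelled nose it held only a peak of 334 bp, just past the end of the gene. The third region (chr14:28530970-28533178) was a peak of 2209 bp beyond the gene, in the e13.5 nose.

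**Figure D2:**
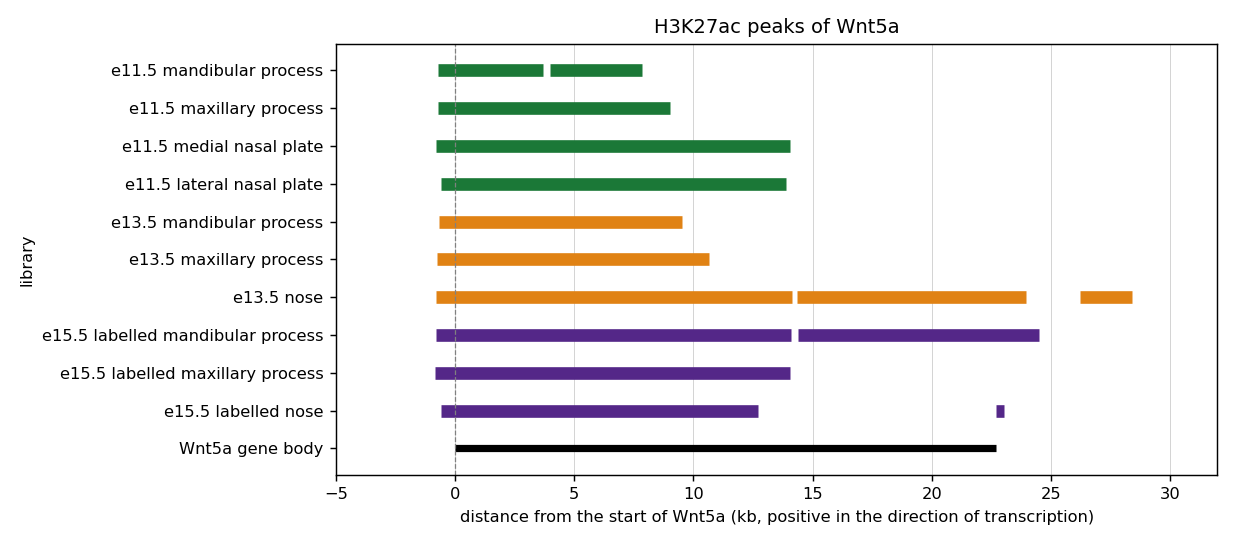
Peaks of Wnt5a (bars) in each library by distance from the gene's start in kb, with the gene body in black and stages in green (e11.5), orange (e13.5) and purple (e15.5). Every library has a peak over the start, and only the e13.5 nose and the e15.5 libraries labelled mandibular process and nose have peaks past 14.3 kb.

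Wnt5a covered 14496 to 26732 bp in the 3 nasal libraries of e11.5 and e13.5 and 8275 to 11421 bp in the 4 jaw libraries, so the groups did not overlap. Among all 12323 genes tested, 31.7% were higher in every nasal library by this unscaled measure, and the nasal lists are the longer ones. As a share, Wnt5a was lower in the nasal libraries, at 463 ± 68.5 bp per Mb (SD, n = 3) against 679 ± 186 (n = 4). The groups overlapped (difference -216, exact two-sided permutation p = 0.171), and the difference was 136 in the other direction when each list was reduced to its 6571 peaks of lowest q-value (exact p = 0.171). The groups did not overlap with peaks of -log10 q of at least 2 (difference -388, exact p = 0.114), within 10 kb (difference -231, exact p = 0.114) or without the e13.5 nose (difference -255, exact p = 0.133). In these settings 1668, 2393 and 2399 of all genes were lower in every nasal library. Without these changes 2276 of the 12323 genes tested were. Without the e11.5 maxillary process the difference was -133 (exact p = 0.3).

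Wnt7b (ENSMUSG00000022382.15, minus strand of chromosome 15), which in mouse is known as an epithelial ligand, was the only one of the 6 ligand genes tested whose e15.5 libraries all lay above its e11.5 libraries. Genes with a peak in at least 3 libraries were tested. At e11.5 its share was 0 bp per Mb in the mandibular process, 51.2 in the maxillary process, 112 in the medial nasal plate and 76.6 in the lateral nasal plate. At e13.5 it was 510 in the mandibular process, 297 in the maxillary process and 251 in the nose. At e15.5 it was 210, 283 and 453 in the libraries labelled mandibular process, maxillary process and nose. All 6 later libraries lay above all 4 of e11.5. How many of all genes share this order was not counted.

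The mean share of Wnt7b was 60.02 ± 47.2 bp per Mb at e11.5 (SD, n = 4) and 315 ± 125 at e15.5 (n = 3), a difference of 255. The exact two-sided permutation p was 0.0286, the smallest that 4 against 3 libraries can give, and it is not adjusted. Of all 12323 genes tested, 5.62% lay higher in every e15.5 library and 4.01% lower, against 1 and 0 of the 6 ligand genes. The slope over the 3 stages was 67.4 bp per Mb per day (exact permutation p = 0.0286, Benjamini-Hochberg adjusted p = 0.460 over all genes), and it did not pass adjustment. An unadjusted slope p under 0.05 was found in 9.77% of all genes and in 1 of the 6 ligand genes. No gene passed the adjusted threshold of 0.05 in these lists, where the smallest adjusted p was 0.210.

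With 6571 peaks from every list, Wnt7b had 0 to 56.5 bp per Mb at e11.5 and 481 to 576 at e15.5. The difference was 492 (exact permutation p = 0.0286), and the slope was 126 bp per Mb per day (exact permutation p = 0.000952, adjusted p = 0.0678). When peaks were counted per 1000 peaks in place of bases, the stages overlapped (exact permutation p = 0.0857). Leaving out any e11.5 library or the e15.5 library labelled nose took the slope's unadjusted exact p to between 0.0536 and 0.0786, with slopes of 58.6 to 68.2 (the 4 e11.5 libraries are the mandibular, maxillary, medial nasal and lateral nasal ones). With a level for each tissue (mandibular, maxillary or nasal as labelled) and stages permuted within tissues, the slope was 68.8 and its exact permutation p was 0.0556. This slope rests on the e15.5 labels, which differ from the peak names.

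**Figure D3:**
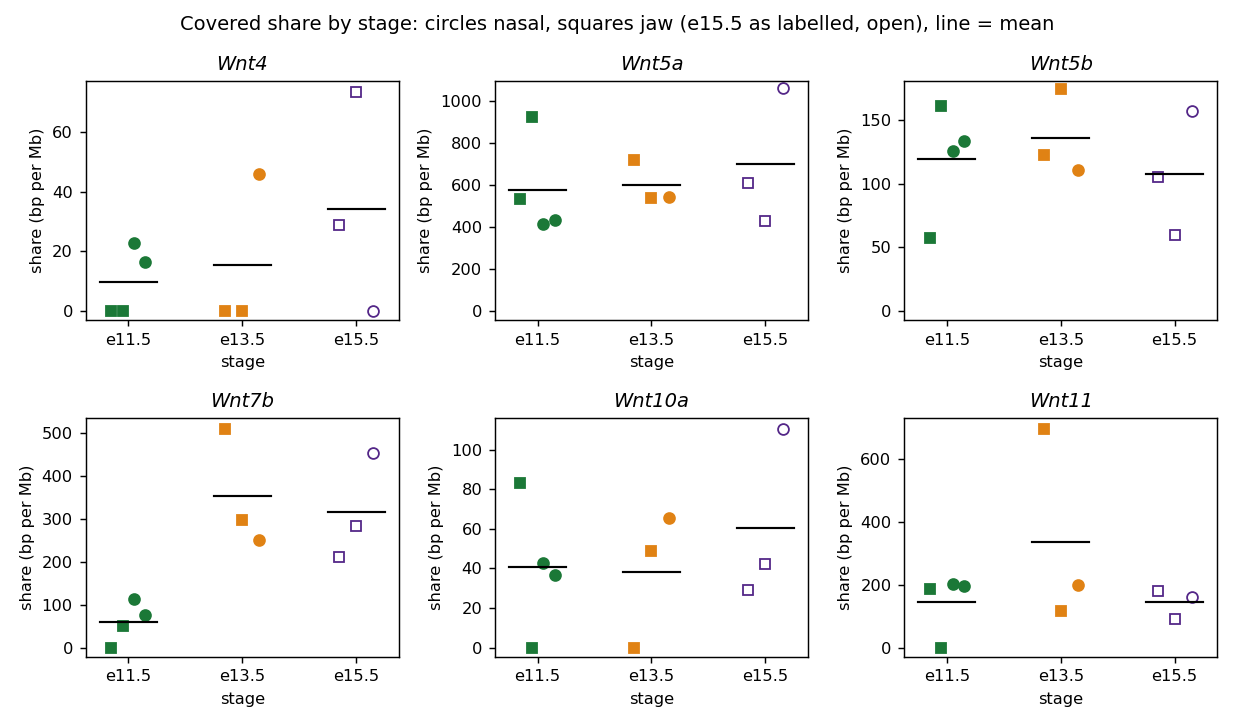
Covered share in bp per Mb (y axis, from 0) at each stage for the 6 ligand genes tested, with 1 point per library (circles nasal, squares jaw, open at e15.5, where tissues are as labelled) and a line at the mean of the stage. In the Wnt7b panel all points at e13.5 and e15.5 are at 210 bp per Mb or more and all at e11.5 are at 112 or less, and in the other panels the e11.5 and e15.5 points overlap.

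The bases of Wnt7b lay almost wholly in 3 regions between -75.0 and -51.3 kb from its start. The region at -52.3 kb was found in 3 of 4 libraries of e11.5, 3 of 3 of e13.5 and 2 of 3 of e15.5. The region at -63.9 kb was found in 2 of 4, 3 of 3 and 3 of 3. The region at -72.4 kb (chr15:85652321-85657484) was found in 1 of 4 libraries of e11.5, as a peak of 640 bp in the medial nasal plate, and in all 6 later libraries, as peaks of 2494 to 4759 bp. A weaker region at -29.1 kb was found in the e13.5 nose and the e15.5 library labelled maxillary process. Within 6 kb of the start only the e13.5 nose had peaks, of 2585 and 512 bp, and the longer one also covers the noncoding gene AU022754. The starts of Gm49539 and Lncppara lie within 1 kb of the regions at -63.9 and -72.4 kb, so peaks of Wnt7b there cannot be told apart from promoter peaks of those genes. The assignment to Wnt7b rests on distance alone, and with a limit of 10 kb the stage difference of Wnt7b was 0.

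**Figure D4:**
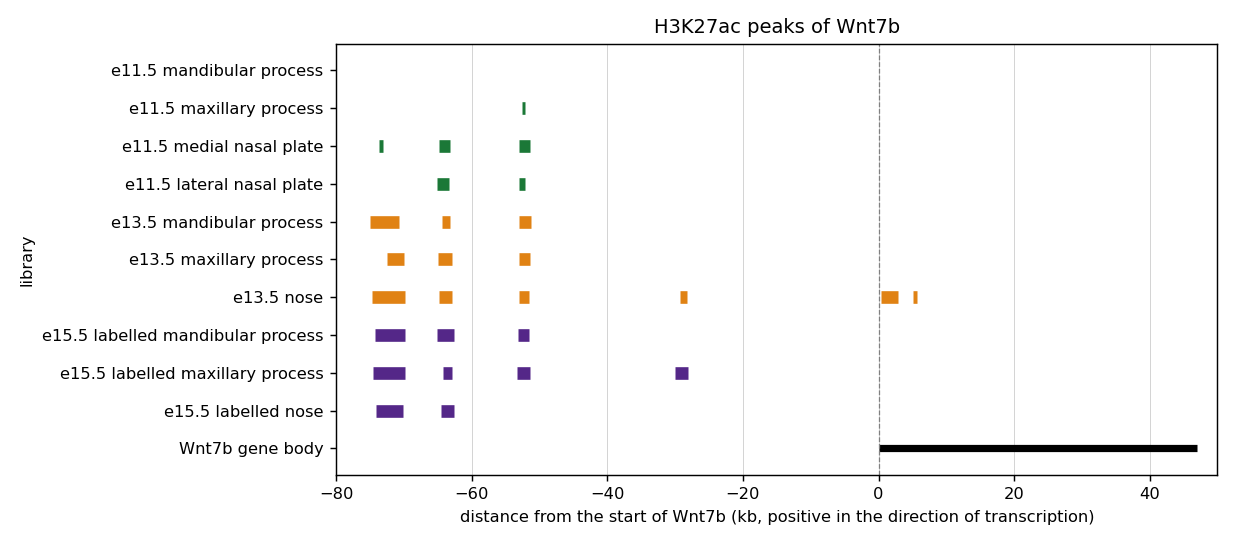
Peaks of Wnt7b (bars) in each library by distance from the gene's start in kb, negative upstream, with the gene body in black and stages in green (e11.5), orange (e13.5) and purple (e15.5). The column of peaks near -72.4 kb is present in 1 of the 4 libraries of e11.5 and in all 6 later ones, and only the e13.5 nose has peaks at the start.

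Part of the surface epithelium markers also lay higher at e15.5. Krt5, Grhl2, Dsp and Perp, 4 of 10 such genes, were higher in every e15.5 library than in every e11.5 library. None was lower, against 5.62% higher and 4.01% lower among all genes tested. Epcam, Trp63, Krt14, Cdh1, Grhl3 and Esrp1 overlapped. Of the 10, 1 to 9 had a peak in the e11.5 libraries, with summed shares of 216 to 689 bp per Mb, and 5 to 10 had one at e15.5, with 1314 to 2353. At e13.5 the sums were 176 in the mandibular process, 247 in the maxillary process and 1234 in the nose, while Wnt7b was highest of these 3 in the mandibular process. Of the 10 markers, 1 had a peak in the e13.5 mandibular process (Epcam) and 2 in the e13.5 maxillary process (Epcam and Grhl2). In the e15.5 library labelled nose, where Wnt7b had 453 bp per Mb, 5 of the 10 had a peak. These were Krt5 (57.3), Epcam (175), Dsp (277), Grhl2 (382) and Perp (423), while Trp63, Krt14, Cdh1, Grhl3 and Esrp1 were at 0. The part of epithelial content in the Wnt7b values was not tested, and in mixed tissue fewer cells of a type and less acetylation per cell cannot be told apart.

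Wnt11 (ENSMUSG00000015957.12, plus strand of chromosome 7), a ligand of beta-catenin-independent signalling, had the most peaks of the 9 genes, 28 in 7 merged regions, and 0 at its promoter. Its shares at e11.5 were 185 bp per Mb in the mandibular process, 0 in the maxillary process, 204 in the medial nasal plate and 197 in the lateral nasal plate. At e13.5 they were 697 in the mandibular process, 116 in the maxillary process and 200.1 in the nose. At e15.5 they were 180, 91.4 and 162 in the libraries labelled mandibular process, maxillary process and nose. The e13.5 mandibular process stood highest and the e11.5 maxillary process lowest. The 4 peaks of the e13.5 mandibular process had a -log10 q of only 1.39 to 1.56, below the filter of 2 used as an alternative. Apart from the e13.5 mandibular process, the jaw values of e11.5 and e13.5 lay below the nasal ones.

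The stages overlapped for Wnt11 (difference between e15.5 and e11.5 of -2.27 bp per Mb, exact permutation p = 0.971). Without the e11.5 maxillary process all e15.5 libraries lay below those of e11.5 (difference -51.1). Over all genes, 903 had that order without this library. Nasal and jaw libraries also overlapped (difference -48.9, exact permutation p = 1). Without the e13.5 mandibular process every nasal library lay above every jaw library (difference 100.2, exact permutation p = 0.1). In that setting 1534 of all genes were likewise higher in every nasal library. Each of these orders thus turned on 1 library. With peaks of -log10 q of at least 2 the regional difference was 157.1 (exact permutation p = 0.0857).

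The region most often found for Wnt11 lay at -19.2 kb (chr7:98813968-98817946), in every library but the e11.5 maxillary process. A region at -50.8 kb (chr7:98782858-98785846) was found in 5 libraries and 1 at -37.1 kb (chr7:98796851-98799156) in 4. In the e13.5 mandibular process these regions and 1 at 35.7 kb downstream, found in 2 libraries, both of e13.5, gave 4 peaks of 1599 to 3554 bp. A region 40.9 kb downstream of the start (chr7:98875140-98876898) was found in all 3 nasal and none of the 4 jaw libraries of e11.5 and e13.5, and in the e15.5 libraries labelled mandibular process and maxillary process. It was absent from every list reduced to 6571 peaks.

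**Figure D5:**
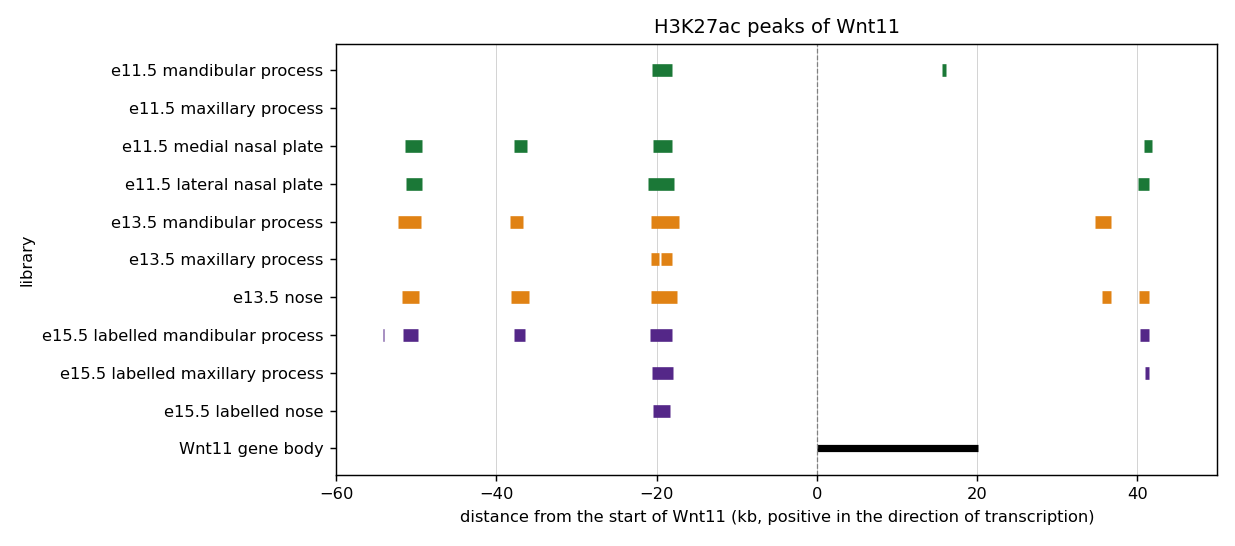
Peaks of Wnt11 (bars) in each library by distance from the gene's start in kb, negative upstream, with the gene body in black and stages in green (e11.5), orange (e13.5) and purple (e15.5). The column near -19.2 kb is filled in 9 libraries, and no library has a peak at the start.

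Wnt10a (ENSMUSG00000026167.14, plus strand of chromosome 1), a ligand known from tooth and skin appendage epithelium, had 9 peaks in 8 libraries. Its shares at e11.5 were 83.0 bp per Mb in the mandibular process, 0 in the maxillary process, 42.5 in the medial nasal plate and 36.7 in the lateral nasal plate. At e13.5 they were 0 in the mandibular process, 48.7 in the maxillary process and 65.3 in the nose. At e15.5 they were 29.3, 42.0 and 111 in the libraries labelled mandibular process, maxillary process and nose. The stages overlapped (difference 20.1, exact permutation p = 0.543), as did nasal and jaw libraries (difference 15.2, exact permutation p = 0.629). Of its peaks, 8 made up the region at chr1:74816317-74818133, whose sequence with the palindrome is shown above, with widths of 1038 to 1518 bp. The ninth, 16.3 kb from the start, was in the e13.5 nose.

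Wnt5b (ENSMUSG00000030170.14, minus strand of chromosome 6), the paralogue of Wnt5a, had 21 peaks. Its shares were 57.4 to 161 bp per Mb at e11.5, 111 to 175 at e13.5 and 59.99 to 157 at e15.5, and the stages overlapped (difference -12.1, exact permutation p = 0.714). Nasal and jaw libraries overlapped as well (difference -5.74, exact permutation p = 0.971). The only region found in all 10 libraries (chr6:119476906-119481045) lies inside the Wnt5b body but over the start of Fbxl14, an F-box protein gene, which is its nearest start site. The shares of Wnt5b thus describe largely the Fbxl14 promoter. A region at chr6:119451483-119453114, in an intron, was found in 5 libraries, 3 nasal and 1 jaw library of e11.5 and e13.5 and the e15.5 library labelled mandibular process. At the first start of Wnt5b only the e13.5 nose had a peak, of 731 bp.

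Wnt4 (ENSMUSG00000036856.4, plus strand of chromosome 4) had peaks in the 3 nasal libraries of e11.5 and e13.5, in none of the jaw libraries of these stages, and in 2 libraries of e15.5. At e11.5 its share was 22.7 bp per Mb in the medial and 16.5 in the lateral nasal plate. At e13.5 it was 45.9 in the nose, and it was 0 in all 4 jaw libraries of these stages. At e15.5 it was 28.9, 73.6 and 0 in the libraries labelled mandibular process, maxillary process and nose. The nasal mean was 28.4 ± 15.48 bp per Mb (SD, n = 3). Wnt4 passed the minimum of 3 libraries only with its nasal peaks. The filter thus favoured this order, which is given without a test. Of all genes tested, 11.2% lay higher in every nasal library and 18.5% lower, and 851 of the 1386 higher ones likewise had peaks in fewer than 3 libraries outside the nasal group. Of the ligand genes, Wnt4 was the only one higher in every nasal library and none was lower.

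The nasal peaks of Wnt4 did not share a place. The medial nasal plate had 1 of 811 bp at -65.7 kb, the lateral nasal plate had 1 of 318 bp at -32.8 kb and 1 of 236 bp at -6.69 kb, and the e13.5 nose had 603 and 1661 bp on either side of the start. None of them was among the top 6571 peaks of its list, and with equal lists the share of Wnt4 was 0 in every library. With peaks of -log10 q of at least 2 the difference was 14.3 bp per Mb, and with the e15.5 libraries included as labelled it was 4.19. The surface epithelium markers also had higher sums in these nasal libraries, 551 to 1234 bp per Mb, than in the jaw libraries, 176 to 270.2, and their part was not tested. The stages overlapped for Wnt4 (difference 24.3, exact permutation p = 0.286), but not without the e15.5 library labelled nose (difference 41.4). Over all genes, 1990 were higher at e15.5 without that library. Without the e15.5 library labelled maxillary process the difference was 4.64. A region 5.67 kb into the gene was found only at e15.5, in the libraries labelled mandibular process and maxillary process.

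Wnt6, a ligand of the surface ectoderm, had 1 peak in all, of 1065 bp at its promoter in the e13.5 nose (share 21.6 bp per Mb). It is the neighbour of Wnt10a on chromosome 1. Wnt3 and Wnt9b lie next to each other on chromosome 11 and had no peak in any of the 10 libraries. No list had a peak between chr11:103699099-103832759, a stretch of 134 kb that holds both genes. Peaks at its left edge, near the start of Gosr2, were found in all 10 libraries. Of all protein-coding genes, 32.3% had no peak in any library.

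Over the 9 genes, the peaks merged into 30 regions. Of these, 14 (46.7%) were found in 1 library, against 44.5% of all 42346 merged regions. The regions found in 8 or more libraries were 6 of 30 for the ligand genes and 5717 of 42346 overall.

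For the ligand genes with a peak in at least 8 libraries, the genes on other chromosomes with the most similar share over the 10 libraries are given by Pearson's r, as a description. They were Nr1h2 (0.960), Kdm3b (0.957) and Plxnb1 (0.956) for Wnt5a, and Psmc3 (0.911), Fam133b (0.848) and Sec22a (0.841) for Wnt5b. For Wnt7b they were Ccdc186 (0.970), Ikbip (0.969) and Ap1g2 (0.968). For Wnt10a they were Cpsf4l (0.936), Slc5a6 (0.932) and Cfap70 (0.926), and for Wnt11 Prkd1 (0.954), Ptgr2 (0.948) and Nkain3 (0.947). Each r is over the same 10 libraries, whose lists differ in length, and the values were picked as the highest among all genes.

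Of the 10 other Wnt ligand genes, 3 were tested, and Wnt9a had a mean of 64.2 bp per Mb in the nasal libraries against 0 in the jaw libraries of e11.5 and e13.5, whose lists are shorter. Its only other peaks were in the e15.5 library labelled mandibular process, so it too passed the minimum of 3 libraries only through the nasal group. Of 15 receptors and co-receptors, 14 were tested, and 4 lay lower in every e15.5 library than in every e11.5 library, with none higher, against 4.01% and 5.62% of all genes tested. At equal list length 3 of 10 were lower and none higher. Over all genes, 627 were lower and 807 higher at that length, against 494 and 693 in the full lists. The share of all genes tested at that length is not given here. The 4 in the full lists were Ror1 (mean 368 to 131 bp per Mb, exact permutation p = 0.0286), Ror2 (808 to 583, exact permutation p = 0.0286), Fzd7 (471 to 324, exact permutation p = 0.0571) and Fzd10 (622 to 213, exact permutation p = 0.114). Without the e11.5 maxillary process the e11.5 mean of Fzd10 was 404. The median change over the 14 receptors was -75.2 bp per Mb, against 2.43 over all genes tested. Ror2 binds Wnt5a, whose own stages overlapped. Between regions, 3 of the 14 (Fzd1, Fzd2 and Ror2) lay lower and 1 (Ryk) higher in every nasal library, near the 18.5% and 11.2% of all genes, and at equal list length none did either. In the full lists Wls, the carrier that Wnt ligands need for secretion, also lay lower in every nasal library (74.4 against 183 bp per Mb). At equal list length Wls did not. Porcn, which attaches the lipid of Wnt ligands, had no peak.

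Of 28 antagonists, modulators and target factors, 21 were tested. Rspo3, an R-spondin that enhances Wnt signalling, was the 1 that lay higher at e15.5 (39.7 against 1.85 bp per Mb), and Lef1, a nuclear partner of beta-catenin, the 1 that lay lower (70.9 against 489), against 5.62% and 4.01% of all genes tested. The e11.5 maxillary process had 1121 bp per Mb for Lef1, and without it the e11.5 mean was 279. In nasal libraries 7 of the 21 lay higher and none lower, against 11.2% and 18.5% of all genes tested: Tcf7l2, Sfrp1, Nkd2, Rnf43, Znrf3, Rspo2 and Lgr5. Of these 7, Nkd2, Rspo2 and Lgr5 had peaks in fewer than 3 libraries outside the nasal group, and so passed the minimum only through it. The nasal lists are also the longer ones. At equal list length 10 of the 21 were tested and none lay higher or lower in every nasal library, and the genes higher in nasal libraries over the whole table fell from 1386 to 175.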

How the data were processed

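Per the labels, chromatin of dissected WT face tissue was crosslinked, sonicated and precipitated with an H3K27ac antibody. The submitters' processing notes list MACS2 2.2.4, SAMtools 0.1.19 and BWA 0.7.7 with the build mm10. The deposited broad peak lists, 1 per library, hold a score, a fold enrichment and −log10 p and −log10 q for each peak, which the authors derived separately for every library. The deposited −log10 q was at least 1.30 and was used only to filter or rank peaks within a list. Score and fold enrichment were not compared between libraries. The 10 input samples were not analysed here. Read depth was unknown.

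Of 144896 peaks, the 144852 on assembled chromosomes were used, and 0 of 42346 merged regions ended past a GRCm38 chromosome. Stages (4 against 3 libraries) and regions (3 nasal against 4 jaw) were called different when the groups did not overlap, with exact permutation over 35 splits. Slopes were set against 4200 permuted stage labellings and adjusted over 12323 genes by Benjamini-Hochberg. Tissues of a stage served as its replicates, so p-values between stages measure the spread between tissues. The nasal and jaw groups each pooled libraries of e11.5 and e13.5, so p-values between regions measure a spread over tissues and stages. Scripts were tested on simulated data. Python 3.11.15, numpy 2.4.6, pandas 2.3.3, matplotlib 3.10.9 and samtools 1.23.1 were used. All 9 genes are named. Regions named are those in most libraries of a gene, or in 1 class of libraries only, and a few described after their values were seen. Members, gene lists and motifs were chosen with earlier results of these data known. Alternatives were a −log10 q of at least 2, 6571 peaks per list, unscaled bases, peaks per 1000, a limit of 10 kb, a promoter window of 2.5 kb, each library left out, e15.5 as labelled and, added after seeing the data, nearest start sites only, slopes within tissues (432 assignments) and pathway lists at equal list length.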

Additional observations from a re-analysis of the deposited data

Results flagged for a closer look

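Wnt11 had a covered share of 0 bp per Mb in the e11.5 maxillary process, far below the other 3 libraries of e11.5, which had 185 to 204. The gap to the nearest of them was 0.908 of the whole range, above Dixon's 95% critical value for 4 libraries. The lists were searched 11 times in this way, and chance flags about 1 in 20 such groups. The e11.5 maxillary list was also the shortest, with 6571 peaks.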

How the results depend on the processing

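Depth was unknown, so the lists' lengths limit every comparison. Of 264 single-gene values under alternatives, 201 were not classed as reversed, weaker or stronger. These include values that fell to 0 and have no direction, such as the stage difference of Wnt4 at equal list length. Most reversals below are of small differences between overlapping groups, and their causes were not tested. No paired analysis was possible because the only replicate number in the labels is 1. A slope within tissues as labelled, added after seeing the data, took Wnt7b above the 0.05 threshold (exact permutation p = 0.0556) and changed no other ligand gene's call. It gave 1411 genes with an unadjusted p under 0.05, against 1204, and 0 after adjustment (smallest adjusted p 0.221). Its tissues at e15.5 rest on labels that differ from the peak names.

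Ligand genes higher at e15.5 numbered 1 as reported, 0 per 1000 peaks and 0 within 10 kb, and 1 to 2 with a library left out. Leaving out a library cannot make separate groups overlap. Such counts, here and below, can thus fall only where a gene drops under the minimum of 3 libraries, and they do not test the calls. Ligand genes lower at e15.5 numbered 0, and 0 to 1 with a library left out. Ligand genes higher in nasal libraries numbered 1, but 0 with a −log10 q of at least 2, 0 at equal list length, 3 with unscaled bases, 0 within 10 kb, 0 with e15.5 as labelled, and 1 to 2 with a library left out. Those lower numbered 0, but 1 with the q filter (Wnt5a), 1 within 10 kb, and 0 to 1 with a library left out.

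Over all genes, 693 were higher at e15.5, 421 with the q filter and 860 to 1990 with a library left out. Lower at e15.5 were 494, 159 with unscaled bases, 237 per 1000 peaks and 609 to 1051 with a library left out. Higher in nasal libraries were 1386, 175 at equal list length, 3908 with unscaled bases, 62 with e15.5 as labelled and 1428 to 2934 with a library left out. Lower were 2276, 459 at equal list length, 6 with unscaled bases and 62 with e15.5 as labelled. Slopes with an adjusted p under 0.05 numbered 0, and 42 at equal list length, none of them a ligand gene.

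In bp per Mb, the differences that changed sign at equal list length were those of Wnt5a between regions (135.8), of Wnt5b between stages (13.2), between regions (29.9) and per day (3.40), and of Wnt11 between stages (18.2). With unscaled bases, in bp, the regional differences of Wnt5a (8789), Wnt5b (2802), Wnt7b (2795) and Wnt11 (4124) and the stage difference of Wnt11 (15.8) changed sign. With the q filter, those of Wnt10a between stages (-22.2), between regions (-0.431) and per day (-5.84) did, and those of Wnt11 between stages (3.96), between regions (157.1) and per day (-0.803). Per 1000 peaks, Wnt5b changed sign between stages (0.00104) and per day (0.00142), and Wnt11 between stages (0.0246). Within 10 kb, Wnt7b did so between regions (20.9) and Wnt11 per day (-1.87). With nearest start sites only, Wnt5b did so between stages (3.34), between regions (24.0) and per day (1.18), and with e15.5 as labelled between regions (18.1).

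With a library left out, the stage difference ran from -57.9 to 259.6 for Wnt5a, from -36.9 to 11.6 for Wnt5b, from -4.90 to 35.8 for Wnt10a and from -51.1 to 24.1 for Wnt11. The regional difference ran from -29.6 to 9.51 for Wnt5b, from -139.5 to 30.6 for Wnt7b and from -132.0 to 100.2 for Wnt11. The slope per day ran from -11.4 to 60.04 for Wnt5a, from -8.21 to 3.54 for Wnt5b, from -1.23 to 8.56 for Wnt10a and from -12.8 to 16.8 for Wnt11.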
